A study of Mus musculus with 8 samples.

Results

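The thrombospondin family is described here in the ventricles of E15.5 mouse embryos. Its 5 members, *Thbs1*, *Thbs2*, *Thbs3*, *Thbs4* and *Comp*, were matched by symbol among the 53465 genes of the expression table, and all 5 were among the 15580 genes tested after filtering on low counts. The family was chosen on the measured rise of *Thbs4* in these same libraries. The difference between the genotypes is therefore given for every member as a description, with no test. Poly(A) RNA-seq was performed on 4 libraries of a neuregulin-1 gain-of-function genotype, called *Nrg1GOF*, and on 4 wild-type (WT) libraries. In *Nrg1GOF*, a Cre-dependent *Nrg1* transgene at Rosa26 was combined with a cardiac Cre driver, which the series title and the study name *Nkx2.5Cre* and the sample labels write as Nkx5.5-Cre. *Nkx2.5* marks cardiac progenitors and their descendants, so the transgene is switched on in that lineage and not in cardiomyocytes alone. No allele or treatment is given for WT, and 1 ventricle sample was taken per replicate. The labels do not say which embryos or litters the replicates came from, so every adjusted p below measures the spread between these samples.

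Thrombospondins are large secreted glycoproteins that bind calcium. They belong to the matricellular proteins, which sit in the extracellular matrix and modulate how cells contact it rather than serving as its scaffold. *Thbs1* and *Thbs2* encode trimers that carry type 1 repeats and bind the receptor CD36, whereas *Thbs3*, *Thbs4* and *Comp* encode pentamers without type 1 repeats. In the heart, thrombospondins are known mainly from injury and overload, and *Thbs4* is also known to act inside the endoplasmic reticulum, where it binds the stress sensor ATF6.

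The members are spread over 5 chromosomes of GRCm38. *Thbs1* lies on chromosome 2, 118111876 to 118127133 (plus strand), *Thbs2* on chromosome 17, 14665500 to 14694235 (minus strand), and *Thbs3* on chromosome 3, 89215180 to 89226837 (plus strand). *Thbs4* lies on chromosome 13, 92751590 to 92794818 (minus strand), and *Comp* on chromosome 8, 70373558 to 70382066 (plus strand). The division into trimers and pentamers shows in the size of the annotated proteins. *Thbs1* and *Thbs2* encode 1171 and 1172 residues in 21 coding exons each, against 956 residues in 23 coding exons for *Thbs3*, 963 in 22 for *Thbs4* and 755 in 19 for *Comp*.

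RefSeq windows of the 250 bases before the transcription start (build GRCm38.p6) were available for 3 of the 5 members. They are shown because the windows differ in base composition. Whether this bears on the size of the rise was not tested. Each runs 5′ to 3′ on the strand of its gene and ends at the base before the start. Capitals mark the letters TATAAA of a TATA box and the letters GGGCGG of a GC box, read on either strand.
Thbs4 (chr13:92794819-92795068, minus strand): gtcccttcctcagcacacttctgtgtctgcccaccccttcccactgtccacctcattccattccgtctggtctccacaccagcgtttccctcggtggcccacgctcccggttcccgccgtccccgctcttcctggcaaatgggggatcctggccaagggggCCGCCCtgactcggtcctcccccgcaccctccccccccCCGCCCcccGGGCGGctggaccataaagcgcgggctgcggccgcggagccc
Thbs2 (chr17:14694263-14694512, minus strand): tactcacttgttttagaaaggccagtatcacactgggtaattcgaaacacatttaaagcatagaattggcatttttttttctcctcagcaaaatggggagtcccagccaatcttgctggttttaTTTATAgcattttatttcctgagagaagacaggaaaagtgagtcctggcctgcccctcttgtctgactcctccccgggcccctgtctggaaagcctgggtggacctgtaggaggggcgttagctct
Thbs3 (chr3:89214930-89215179, plus strand): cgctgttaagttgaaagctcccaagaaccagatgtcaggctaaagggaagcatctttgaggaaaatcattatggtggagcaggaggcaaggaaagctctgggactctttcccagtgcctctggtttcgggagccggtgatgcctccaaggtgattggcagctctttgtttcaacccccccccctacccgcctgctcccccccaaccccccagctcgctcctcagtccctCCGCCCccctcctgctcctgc
The *Thbs4* window was the richest in G and C, with 70.8%, and held 3 GC boxes that begin 89, 51 and 42 bases before the start. The *Thbs3* window had 58.8% G and C and 1 GC box at 21 bases before the start. The *Thbs2* window had 46.8% G and C, no GC box, and 1 TATA box letter match at 126 bases before the start, which is farther out than this element usually lies. Across 32851 RefSeq windows of the same length, 32.7% held a GC box and 12.4% held the TATA letters. An E-box (CANNTG), held by 66.2% of all windows, occurred once in each of the 3. The letters of an AP-1 site (TGANTCA), an ETS core with its flank (CCGGAA) and an ATF6 site (TGACGTG) were found in none of the 3, against 6.75%, 12% and 1.65% of all windows. Both strands were searched, and no match says only that these letters are not in this window.

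The libraries held between 18754259 and 26786039 counts, apart from *Nrg1GOF* library 4 with 8038641. *Nrg1* itself, which checks the genotypes, lay between 59.7 and 63.7 counts-per-million (CPM) in *Nrg1GOF* and between 3.07 and 4.47 CPM in WT, and the counts do not separate transgene from endogenous transcripts. WT libraries 1 and 2 stood apart from WT libraries 3 and 4 in several members, and values against each pair alone are given for the members and for many of the list genes named. Of the 15580 tested genes, 28.7% were called in either direction by the edgeR quasi-likelihood test at an adjusted p under 0.05, 15.9% were called higher in *Nrg1GOF* and 12.8% were called lower.

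All 5 members were higher in *Nrg1GOF* than in WT, with no overlap between the groups in any of them. They were also all among the genes called higher (5 of 5, against 15.9% of the tested genes), and 16.6% of the tested genes were higher without overlap. The count of members called was 4, without *Comp*, when the WT pairs were summed, after thinning to equal depth, against WT libraries 3 and 4 alone, and without *Nrg1GOF* library 2 or WT library 4. It was 1, *Thbs4*, with either covariate described below. Because the family was chosen on this contrast, nothing is read from these counts. The median log2 fold change of the 5 members was 0.87, with *Comp* in the middle, against -0.0116 over all tested genes. In bulk tissue, more cells of a type and more RNA per cell cannot be told apart, nor can fewer cells and less RNA per cell.

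*Thbs4* (ENSMUSG00000021702), the pentamer found in the endoplasmic reticulum and in the matrix of heart and tendon, showed the steepest rise of the family. It was at 275.2, 267.5, 245.9 and 288.0 CPM in *Nrg1GOF* libraries 1 to 4 and at 74.8, 69.3, 58.0 and 58.9 CPM in WT libraries 1 to 4. The lowest *Nrg1GOF* library was thus 3.29 times the highest WT library. The group values were 269.2 ± 17.6 CPM and 65.2 ± 8.16 CPM (SD, n = 4 each), and the log2 fold change was 2.04 (SE 0.09) or 4.12-fold. Only 67 of the 15580 tested genes had a larger log2 fold change. Against WT libraries 1 and 2 alone the value was 1.90, compared with 2.21 against WT libraries 3 and 4.

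*Thbs1* (ENSMUSG00000040152), the trimer best known as an activator of latent TGF-β and an inhibitor of vessel growth, followed when all 4 WT libraries were used. It was at 127.3, 129.1, 149.3 and 131.9 CPM in *Nrg1GOF* and at 67.9, 70.5, 33.6 and 34.2 CPM in WT. The *Nrg1GOF* libraries lay close together, whereas WT fell into pairs, with libraries 1 and 2 at 2.04 times the mean of libraries 3 and 4. The group values were 134.4 ± 10.1 CPM and 51.6 ± 20.4 CPM (SD, n = 4 each), and the log2 fold change was 1.39 (SE 0.24). This value was 0.96 against WT libraries 1 and 2 alone and 2.0 against WT libraries 3 and 4 alone, so its size depended on the WT pair while its direction did not. Against WT libraries 1 and 2 alone *Comp* was higher than *Thbs1*, at 1.06, as it was under both covariates described below.

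*Thbs2* (ENSMUSG00000023885), the other trimer, which regulates collagen fibril assembly and the clearance of matrix metalloproteinase 2, had the lowest log2 fold change against all 4 WT libraries, within the error of that of *Thbs3*. It was at 132.7, 139.9, 153.3 and 130.3 CPM in *Nrg1GOF* and at 106.6, 109.6, 67.7 and 70.0 CPM in WT. The groups came close to touching, the lowest *Nrg1GOF* library being 1.19 times the highest WT library, and the same WT pairs were seen, with a ratio of 1.57. The group values were 139.1 ± 10.4 CPM and 88.5 ± 22.7 CPM (SD, n = 4 each), and the log2 fold change was 0.65 (SE 0.16). Against WT libraries 1 and 2 alone it was 0.36, and against WT libraries 3 and 4 alone 1.02, which was above *Thbs3* and *Comp* in that comparison. Without WT library 2 it was 0.77 and also above both.

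*Thbs3* (ENSMUSG00000028047), a pentamer expressed in the skeleton and in cardiomyocytes, was at 24.5, 24.7, 33.7 and 25.0 CPM in *Nrg1GOF* and at 17.6, 16.5, 16.2 and 15.7 CPM in WT. WT showed no pairs here (ratio 1.07), and *Nrg1GOF* library 3 stood above the other *Nrg1GOF* libraries. The group values were 26.9 ± 4.48 CPM and 16.5 ± 0.814 CPM (SD, n = 4 each), and the log2 fold change was 0.71 (SE 0.11), which was 0.59 without *Nrg1GOF* library 3, 0.66 against WT libraries 1 and 2 and 0.77 against WT libraries 3 and 4. The exons of *Thbs3* overlap those of *Mtx1* on the opposite strand over 318 bases (6.59% of the *Thbs3* exons), and no source used here says whether the counting used strand. *Mtx1*, which encodes a mitochondrial import protein, was at 16.2 to 20.4 CPM in *Nrg1GOF* and at 17.9 to 24.3 CPM in WT, with overlapping groups and a log2 fold change of -0.17 (adjusted p = 0.318, edgeR).

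*Comp* (ENSMUSG00000031849), the cartilage oligomeric matrix protein, was the least abundant member. It was at 2.68, 3.0, 2.48 and 3.5 CPM in *Nrg1GOF* and at 1.72, 0.982, 2.02 and 1.52 CPM in WT. These levels rest on 18 to 63 counts per library, well above the 3 counts taken as the floor (0.115 to 0.375 CPM), and counting error is a larger part of them than in the other members. The group values were 2.91 ± 0.445 CPM and 1.56 ± 0.438 CPM (SD, n = 4 each), and the log2 fold change was 0.87 (SE 0.24). The value was 1.06 with WT libraries 1 and 2 as the controls and 0.70 with WT libraries 3 and 4. *Comp* did not follow the WT pairs, its lowest WT value being in library 2 and its highest in library 3.

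**Figure D1:**
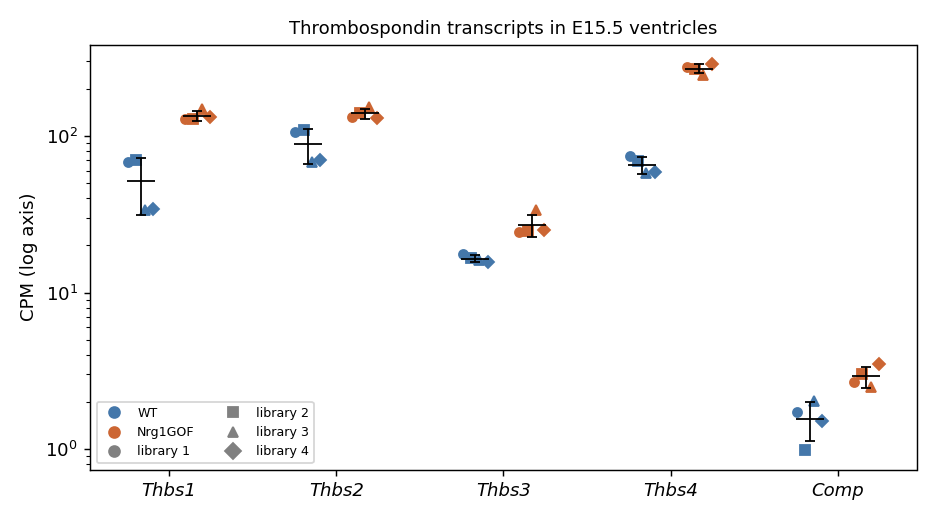
CPM of each thrombospondin gene (log axis) in the 4 WT and 4 *Nrg1GOF* libraries, with marker shapes for the library number, horizontal lines for group means and bars for the SD. The *Nrg1GOF* libraries lie above all WT libraries in every gene, by the widest gap in *Thbs4*, where the lowest *Nrg1GOF* value was 3.29 times the highest WT value.

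**Figure D2:**
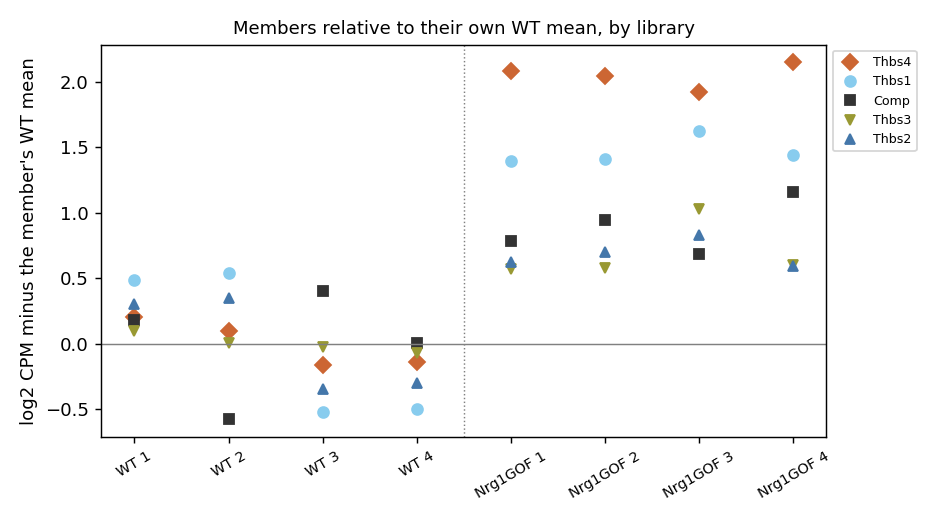
Log2 CPM of each member minus its own WT mean, by library. *Thbs1* and *Thbs2* lie above 0 in WT libraries 1 and 2 and below it in WT libraries 3 and 4, and *Thbs4* is the highest member in each *Nrg1GOF* library.

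The sequence that members share with other genes was measured, since reads that fit several genes are divided between them. No run of 60 bases, the length of a read, was common to the transcripts of any pair of members. With genes outside the family, *Thbs3* shared 162 of its 5209 runs (3.11%), with *Mtx1*, and *Thbs1* shared 94 of 6012 (1.56%), with the antisense noncoding gene *Gm29233*, which itself was at 0 to 0.109 CPM. *Thbs2*, *Thbs4* and *Comp* shared none.

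Levels were compared between members per kilobase of annotated exon. *Thbs4* was the most abundant member per length in both genotypes, at 81.8 CPM per kilobase in *Nrg1GOF* (74.8 to 87.6 over the libraries) and at 19.8 in WT (17.6 to 22.7). In *Nrg1GOF* it was followed by *Thbs1* at 22.1 (20.97 to 24.6) and *Thbs2* at 19.9 (18.6 to 21.9), whose ranges overlapped. In WT the next was *Thbs2* at 12.6 (9.67 to 15.7) and then *Thbs1* at 8.49 (5.54 to 11.6), again with overlapping ranges, although *Thbs2* was the higher in each of the 4 WT libraries. *Thbs3*, at 5.59 and 3.42, and *Comp*, at 0.982 and 0.526 CPM per kilobase in *Nrg1GOF* and WT, came last with no overlap with their neighbors. With the length of the longest transcript instead, *Thbs1* and *Thbs2* exchanged places in *Nrg1GOF*, at 23.0 and 23.6 CPM per kilobase, so their order there is not settled.

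The make-up of the family was therefore different between the genotypes. *Thbs4* held 57.9% to 65.2% of the summed level per kilobase in *Nrg1GOF* and 40.4% to 48.0% in WT. The share of *Thbs2* was 13.9% to 17.0% in *Nrg1GOF* and 26.2% to 30.045% in WT, and that of *Thbs3* was 3.86% to 5.41% and 6.58% to 9.10%. The groups did not overlap in these 3 shares. They did overlap for *Thbs1*, with 16.2% to 19.1% in *Nrg1GOF* and 15.0% to 22.3% in WT, and for *Comp*, with 0.648% to 0.879% and 0.635% to 1.85%. These shares are one and the same contrast as the levels and are likewise a description. In absolute terms the family was a small part of the transcriptome, between 0.0176% and 0.0606% of the counts of a library.

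**Figure D3:**
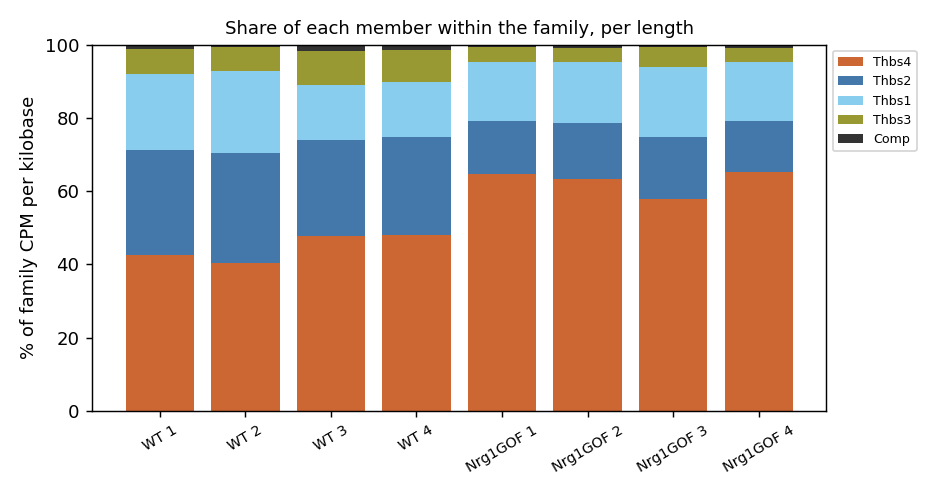
Share of each member in the summed CPM per kilobase of the family, in percent, for each of the 8 libraries. *Thbs4* takes 57.9% to 65.2% in the *Nrg1GOF* libraries and 40.4% to 48.0% in the WT libraries, and *Comp* is a thin band at the top.

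Fibroblasts, the cells that lay down most of the cardiac matrix, are one source of thrombospondin transcripts, and their markers moved with the genotype. All 8 fibroblast markers were called higher in *Nrg1GOF*, and their summed level was 6546 to 8087 CPM in *Nrg1GOF* and 3441 to 4743 CPM in WT. Within WT the sum followed the same pairs as *Thbs1* and *Thbs2*, at 4743 and 4708 CPM in libraries 1 and 2 and at 3506 and 3441 CPM in libraries 3 and 4. The members were therefore also expressed per 1000 CPM of the 8 markers, a scale chosen after the data were seen. It divides each member by genes that themselves differ between the genotypes, and it assumes nothing about which cells made the transcripts. The sum was mostly *Col3a1*, *Col1a1* and *Col1a2*, at 2639, 1933 and 1660 of 6884 CPM in *Nrg1GOF* library 1. Their log2 fold changes were 0.74, 0.76 and 0.95. The less abundant markers were at 1.31 (*Lum*), 1.26 (*Tcf21*), 1.04 (*Pdgfra*), 0.93 (*Dpt*) and 0.63 (*Dcn*). Whether the results below hold with any of these as the unit was not tested.

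On that scale the members parted. *Thbs4* was at 39.98, 37.1, 30.4 and 44.0 in *Nrg1GOF* libraries 1 to 4 and at 15.8, 14.7, 16.5 and 17.1 in WT libraries 1 to 4, a ratio of means of 2.36 with no overlap. The gap between the WT pairs seen in its CPM was no longer present in the same order. *Thbs1* was at 17.9 to 20.1 in *Nrg1GOF* and at 9.60 to 15.0 in WT, a ratio of 1.54, also without overlap. Its WT pairs remained apart on this scale, at 14.3 and 15.0 in libraries 1 and 2 and at 9.60 and 9.93 in libraries 3 and 4. For the other 3 members the groups overlapped. *Thbs2* was at 18.96 to 19.9 in *Nrg1GOF* and at 19.3 to 23.3 in WT (ratio 0.908), *Thbs3* at 3.42 to 4.16 and at 3.51 to 4.61 (ratio 0.913), and *Comp* at 0.307 to 0.535 and at 0.209 to 0.577 (ratio 1.04). The means of *Thbs2* and *Thbs3* were thus slightly lower in *Nrg1GOF* on this scale, within overlapping groups. For *Thbs3* this rested on WT libraries 3 and 4, at 4.61 and 4.55, since WT libraries 1 and 2 were at 3.71 and 3.51, beside a *Nrg1GOF* mean of 3.74. *Comp* likewise differed by pair, at 0.363 and 0.209 in WT libraries 1 and 2 and at 0.577 and 0.441 in WT libraries 3 and 4, around a *Nrg1GOF* mean of 0.412. *Thbs1* and *Thbs4* were higher in each *Nrg1GOF* library than in any WT library.

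**Figure D4:**
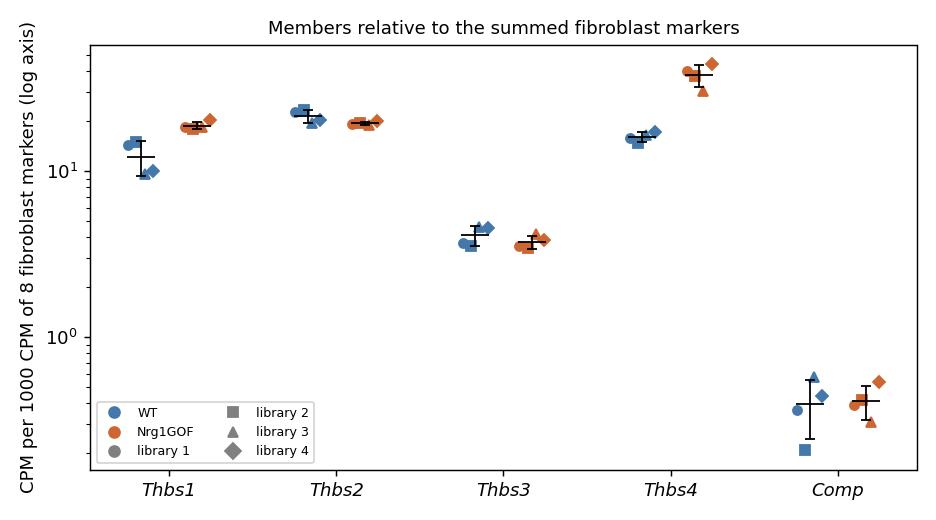
CPM of each member per 1000 CPM of the 8 fibroblast markers (log axis), by library, with group means and SD. The groups are apart in *Thbs4* and *Thbs1*, with ratios of 2.36 and 1.54, and overlap in *Thbs2*, *Thbs3* and *Comp*.

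Markers of other cell types that a ventricle sample can hold were counted in the same fit. Called higher in *Nrg1GOF* were 7 of 7 macrophage markers (summed level 121 to 144 CPM, against 64.4 to 71.0 CPM in WT), 4 of 6 epicardial markers (157 to 201, against 107 to 139 CPM) and 5 of 8 endothelial and endocardial markers (1289 to 1413, against 1163 to 1193 CPM). Of the 8 valve and tendon markers, 4 could be tested and 3 were called higher (58.4 to 91.9, against 30.05 to 45.2 CPM, summed over the 8), while *Tnmd*, *Chad*, *Cilp* and *Prg4* were too low to test and *Tnmd* had no counts in *Nrg1GOF*. Of 8 atrial markers, all had positive log2 fold changes and 4 were called higher (5454 to 6409, against 2990 to 4886 CPM). In WT their sum again split into pairs, at 4886 and 4742 CPM in libraries 1 and 2 and at 3053 and 2990 CPM in libraries 3 and 4. Most of that split was *Myh6*, at 3718, 3639, 2003 and 1960 CPM in WT libraries 1 to 4. *Sln*, *Myl7*, *Dkk3* and *Stard10* were also higher in WT libraries 1 and 2, whereas *Myl4*, *Nr2f1* and *Nr2f2* showed no such split. Ventricular cardiomyocyte markers were the most abundant list, and all 6 had negative log2 fold changes, 4 of them called (23401 to 29247, against 34394 to 35871 CPM). Of 7 mural cell markers, 3 were called higher and 2 lower (1086 to 1171, against 1371 to 1602 CPM), with a median log2 fold change of 0.0149. The lower sum followed *Acta2*, at 622 to 739 CPM in *Nrg1GOF* and 991 to 1150 CPM in WT, so it does not stand for the whole list. Platelets are rich in thrombospondin 1, and none of their 5 tested markers was called by edgeR, DESeq2 or limma-voom or had an unadjusted p under 0.05, with summed levels of 10.5 to 12.3 CPM in *Nrg1GOF* and 8.81 to 13.7 CPM in WT. Nor was any of the 6 red blood cell markers (5374 to 8837 CPM in *Nrg1GOF*, 12954 and 12121 CPM in WT libraries 1 and 2, and 5445 and 4373 CPM in WT libraries 3 and 4) or the 1 tested nerve and Schwann cell marker, by edgeR at either p. With the valve and tendon covariate described below, none of these markers was called, but all 6 red blood cell markers and 1 platelet marker had an unadjusted p under 0.05. DESeq2 tested 3 nerve and Schwann cell markers and called none, with 1 at an unadjusted p under 0.05.

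The first of 2 covariates was the mean log2 CPM of the 8 atrial markers, not their sum. With this covariate, the log2 fold change of *Thbs4* remained within its replicate spread, while that of *Thbs1* was 0.76, that of *Thbs2* 0.18 and that of *Thbs3* 0.51. The other was the mean log2 CPM of the 4 valve and tendon markers that could be tested. With that covariate the log2 fold change was 1.84 for *Thbs4*, 0.28 for *Thbs1*, 0.39 for *Thbs3* and -0.12 for *Thbs2*, whose direction turned. *Comp* was at 1.31 and 1.37 under the 2 covariates. Both covariates differ between the genotypes and so take up part of the contrast itself. The part of macrophages, epicardium and endothelium in the members' levels was not tested.

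The receptors of the family were examined next. Of 14 surface receptors and binding partners, 10 were called higher and 1 lower in *Nrg1GOF*, with a median log2 fold change of 0.52. The widest rises were those of *Sdc4*, a heparan sulfate proteoglycan of focal contacts, and *Itgav*, the αv integrin subunit that recognizes the RGD motif. *Sdc4* was at 59.3 to 74.7 CPM in *Nrg1GOF* and 18.8 to 22.9 CPM in WT, with 1.8 on the log2 scale (SE 0.09, adjusted p = 3.28e-06), and *Itgav* was at 203 to 240.1 CPM and 63.2 to 89.9 CPM, the difference on the log2 scale being 1.57 (SE 0.12, adjusted p = 3.23e-05). The called receptor with the smallest rise was *Sdc1*, at 0.31 (SE 0.07, adjusted p = 0.00654), which was not called against WT libraries 1 and 2 alone (0.25, adjusted p = 0.0704) but was against WT libraries 3 and 4 (0.38, adjusted p = 0.00901). *Lrp1*, the endocytic receptor that clears thrombospondins, rose by 0.90 (adjusted p = 0.0245). It split by WT pair, with 123.0 and 151.3 CPM in libraries 1 and 2 and 64.9 and 65.0 CPM in libraries 3 and 4, so that it rose by 0.46 against the former pair and by 1.54 against the latter (adjusted p = 0.0184 and 3.31e-05). The call was lost without *Nrg1GOF* library 1 (0.85, adjusted p = 0.0625) or 2 (0.89, adjusted p = 0.0621) and without WT library 3 (0.74, adjusted p = 0.0504) or 4 (0.74, adjusted p = 0.0523).

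Neither of the receptors best known for binding *Thbs1* products was called higher at the settings used throughout. *Cd36*, the scavenger receptor that binds type 1 repeats, was the called gene that fell. It was at 310.1, 281.5, 246.8 and 269.9 CPM in *Nrg1GOF* and at 340.7, 358.1, 416.5 and 436.3 CPM in WT, with -0.49 on the log2 scale (SE 0.10, adjusted p = 0.00426), and at -0.34 and -0.62 against WT libraries 1 and 2 and WT libraries 3 and 4 (adjusted p = 0.0341 and 0.00163). The call was lost with the atrial covariate (-0.26, adjusted p = 0.241) and with the valve and tendon covariate (-0.05, adjusted p = 0.911). *Cd47*, the receptor for the carboxy-terminal domain of thrombospondin 1, had a log2 fold change of 0.19 (adjusted p = 0.0572). Though not called, it was higher without overlap, at 60.2 to 63.3 CPM in *Nrg1GOF* and 49.8 to 59.1 CPM in WT. With WT libraries 1 and 2 as the sole controls it was at 0.085 (adjusted p = 0.409), and it passed the threshold when compared with WT libraries 3 and 4 (0.30, adjusted p = 0.00704) and without WT library 2 (0.23, adjusted p = 0.0239). It also passed with libraries scaled by their totals (0.23, adjusted p = 0.0229) and with a filter of 1 CPM in 4 libraries (0.20, adjusted p = 0.039). *Cacna2d1* and *Itga3* were the other list genes not called.

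Of the extracellular ligands and substrates, 16 of 18 could be tested (not *Mmp9* and *Matn3*), and 13 were called higher and none lower, with a median log2 fold change of 0.77. The 3 TGF-β genes were all called higher. *Tgfb1*, whose latent product thrombospondin 1 can activate, was at 40.7 to 49.6 CPM in *Nrg1GOF* and 27.7 to 33.6 CPM in WT, the difference on the log2 scale being 0.56 (SE 0.08, adjusted p = 0.000787). *Tgfb3* rose more, at 46.7 to 49.4 CPM against 17.5 to 23.1 CPM, with 1.25 on the log2 scale (SE 0.10, adjusted p = 2.96e-05). *Mmp2*, a protease that *Thbs2* helps to clear, was at 1.06 (adjusted p = 6.79e-05). The smallest called rise was that of the fibrillar collagen *Col5a1*, at 0.44 (SE 0.10, adjusted p = 0.0102), with 0.26 and 0.66 against the same pairs (adjusted p = 0.0473 and 0.000545).

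*Col9a1*, a cartilage collagen that binds the *Comp* product, had the largest value of the list, 2.04 (SE 0.64, adjusted p = 0.0387), but ranged from 5.13 to 22.0 CPM in *Nrg1GOF* and from 0.283 to 6.19 CPM in WT, so that the groups overlapped. The call was lost with DESeq2 (adjusted p = 0.0687), with the replicate number as a block (2.07, adjusted p = 0.0536), with the WT pairs summed (2.02, adjusted p = 0.0852), with WT libraries 1 and 2 as the sole controls (1.31, adjusted p = 0.0726, against 3.53 and 0.00723 with WT libraries 3 and 4), and without *Nrg1GOF* library 1, 2 or 3 or WT library 2 or 4 (1.68 to 2.22). *Matn4*, *Acan* and *Vegfa* were the genes of the list not called. *Vegfa*, which thrombospondin 1 binds, was at 0.07 (adjusted p = 0.878), with WT libraries 1 and 2 at 136.9 and 139.8 CPM and WT libraries 3 and 4 at 272.4 and 278.0 CPM. Against the former pair alone it was higher, at 0.65 (adjusted p = 0.0289), and against the latter it was at -0.34 (adjusted p = 0.165). *Col1a1*, among the called substrates, is also one of the 8 fibroblast markers.

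*Thbs4* acts with ATF6 in the endoplasmic reticulum, and 14 of 16 genes on a list of *Atf6* and chaperones were called higher, with none lower. The changes were small, with a median log2 fold change of 0.44, compared with 2.04 for *Thbs4*. The highest was *Sdf2l1*, a cofactor of the chaperone BiP, at 12.2 to 16.8 CPM in *Nrg1GOF* and 7.83 to 11.0 CPM in WT, the difference on the log2 scale being 0.70 (SE 0.14, adjusted p = 0.00547). *Pdia6*, a disulfide isomerase, was at 275.7 to 313.1 CPM and 183.0 to 225.8 CPM, with 0.55 on the log2 scale (SE 0.08, adjusted p = 0.000752). *Hspa5*, which encodes BiP, was at 834.0 to 1005 CPM in *Nrg1GOF* and 535.5 to 742.8 CPM in WT, at 0.51 (adjusted p = 0.00986), with 0.30 against WT libraries 1 and 2 and 0.75 against WT libraries 3 and 4 (adjusted p = 0.047 and 0.000611). At the low end were *Sel1l*, a subunit of the complex that removes misfolded proteins, at 0.27 (SE 0.08, adjusted p = 0.0244), and the lectin chaperone *Canx* at 0.19 (SE 0.06, adjusted p = 0.0391). Both calls were lost without *Nrg1GOF* library 1 or 2 or WT library 3 or 4, that of *Canx* also without WT library 2, with values of 0.15 to 0.19 for *Canx* and 0.22 to 0.27 for *Sel1l*. They were also lost with WT libraries 1 and 2 as the sole controls (0.14 for both, adjusted p = 0.264 for *Canx* and 0.172 for *Sel1l*) and with the WT pairs summed (adjusted p = 0.176 and 0.0723), and that of *Canx* in the likelihood ratio test (adjusted p = 0.0604) and with no filter on low counts (adjusted p = 0.105). With the atrial covariate *Canx* was at 0.12 and *Sel1l* at 0.09 (adjusted p = 0.468 and 0.611), and with the valve and tendon covariate at 0.14 and 0.01 (adjusted p = 0.668 and 0.982). With WT libraries 3 and 4 as controls both were called, at 0.24 and 0.41. *Atf6* itself was at 0.15 (adjusted p = 0.33), with 73.7 to 83.1 CPM in *Nrg1GOF* and 59.2 to 80.0 CPM in WT, and was called against WT libraries 3 and 4 alone (0.38, adjusted p = 0.00451) but not against WT libraries 1 and 2 (-0.04, adjusted p = 0.729). *Herpud1*, a stress-induced gene of protein degradation, was the other gene not called.

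Most other matricellular genes were higher as well. Of 13 tested (not *Wisp2*), 10 were called higher and 1 lower, with a median log2 fold change of 0.71. *Tnc*, the tenascin of remodeling tissue, was at 235.8, 225.7, 237.4 and 210.1 CPM in *Nrg1GOF* and at 64.2, 70.8, 41.7 and 41.1 CPM in WT, the difference on the log2 scale being 2.06 (SE 0.17, adjusted p = 4.56e-05), or 1.75 and 2.46 against the former and the latter WT pair. *Ctgf*, a target of YAP and TGF-β signaling, was at 255.1 to 348.8 CPM against 89.6 to 91.2 CPM, with 1.69 on the log2 scale (SE 0.09, adjusted p = 3.85e-06), and showed no WT pairs. The smallest called rise was that of *Smoc1*, at 0.51 (SE 0.12, adjusted p = 0.0127), which was not called against WT libraries 3 and 4 alone (0.36, adjusted p = 0.0596) but was against WT libraries 1 and 2 (0.68, adjusted p = 0.00808). *Spp1*, which encodes osteopontin, fell. It was at 1.58 to 2.50 CPM in *Nrg1GOF* and at 2.78 to 8.20 CPM in WT, the difference on the log2 scale being -1.63 (SE 0.33, adjusted p = 0.00509), with -0.995 against WT libraries 1 and 2 and -2.07 against WT libraries 3 and 4 (adjusted p = 0.039 and 0.000304). The call was lost with the atrial covariate (-0.67, adjusted p = 0.327), and with the valve and tendon covariate the value was -0.02 (adjusted p = 0.992).

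Genes outside the family that encode type 1 repeats, the module that *Thbs1* and *Thbs2* carry, were counted last. Of 13 tested (not *Rspo4*), 7 were called higher and 1 lower, with a median log2 fold change of 0.76. *Rspo2*, an activator of WNT signaling, was low in both groups, at 2.18 to 3.13 CPM in *Nrg1GOF* and 0.526 to 0.873 CPM in WT, and its log2 difference was 1.91 (SE 0.23, adjusted p = 0.000290). *Spon2*, a secreted matrix protein, was at 96.9 to 107.9 CPM against 39.0 to 43.9 CPM, with 1.31 on the log2 scale (SE 0.06, adjusted p = 1.84e-06). *Spon1* rose by 0.41 (SE 0.08, adjusted p = 0.00352). *Sema5b*, a transmembrane guidance molecule, fell by 1.09 (SE 0.26, adjusted p = 0.0111) on the log2 scale, from 3.75 to 4.81 CPM in WT to 0.875 to 2.61 CPM in *Nrg1GOF*. Its call was lost with the WT pairs summed (adjusted p = 0.0612) and after thinning to equal depth (-0.97, adjusted p = 0.0558). With WT libraries 1 and 2 as the sole controls it was at -1.04 and not called (adjusted p = 0.0566). Nor was it called under the atrial (-1.26, adjusted p = 0.109) or the valve and tendon covariate (-1.26, adjusted p = 0.312). Under both covariates its fall was larger than the 1.09 of the main fit. Against WT libraries 3 and 4 it was called, at -1.13 (adjusted p = 0.0302).

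Across the 5 lists, between 61.5% and 87.5% of the tested genes were called in either direction, against 28.7% of all tested genes, and each list's median lay above the -0.0116 of all tested genes. With the atrial covariate, 4 receptors, 7 ligands, 2 genes of the *Atf6* list, 7 matricellular genes and 6 type 1 repeat genes were called, beside 1427 of all 15580 tested genes. With the valve and tendon covariate these counts were 2, 3, 0, 4 and 1, beside 288 of 15580. Of the other genes named with values, *Sdc1*, *Lrp1*, *Col5a1*, *Col9a1*, *Hspa5*, *Sdf2l1* and *Spon1* lost their call under both covariates, and *Pdia6*, *Smoc1* and *Rspo2* under the latter. A lost call did not always go with a smaller log2 fold change. *Sdc1* stayed at 0.31 with the atrial covariate. With the valve and tendon covariate *Smoc1* was at 1.01, up from 0.51, *Rspo2* at 1.48 and *Sdc1* at 0.25, whereas *Lrp1* was at -0.16 and *Spon1* at 0.06. By WT pair, *Sdf2l1* was at 0.52 and 0.91 (adjusted p = 0.049 and 0.0036), *Pdia6* at 0.43 and 0.69 and *Spon1* at 0.30 and 0.54, in the order of libraries 1 and 2 and libraries 3 and 4. These 3 genes were called against either pair, as were *Sdc4*, *Itgav*, *Tgfb1*, *Tgfb3*, *Mmp2*, *Ctgf*, *Rspo2* and *Spon2*. No test of the lists was made, and nothing is read from them as particular to thrombospondins, since they were written with earlier results of these data known.

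**Figure D5:**
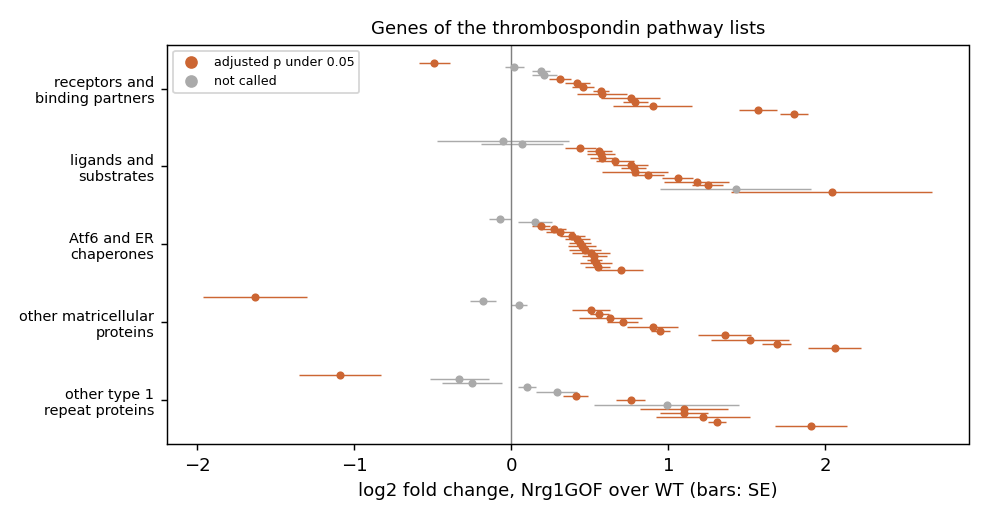
Log2 fold change (*Nrg1GOF* over WT) with its SE for each tested gene of the 5 lists, ordered within a list, colored where the edgeR adjusted p was under 0.05. Most points lie right of 0, the *Atf6* and chaperone list spans the narrowest range (-0.07 to 0.7), and *Spp1*, *Sema5b* and *Cd36* are the colored points left of 0.

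The genes whose pattern over the 8 libraries was most like that of *Thbs4* were found among 13052 tested genes of sufficient level. Likeness was measured as the root mean square difference in log2 CPM after each gene was set to its own WT mean, so that a small value means close agreement in every library. The closest was *Clu*, which encodes the secreted chaperone clusterin, with a difference of 0.0959. *Clu* was at 297.8, 295.9, 272.3 and 326.3 CPM in *Nrg1GOF* and at 79.1, 77.1, 69.0 and 76.9 CPM in WT. The next were *Etv4*, an ETS transcription factor of the PEA3 group (0.159), *Slco3a1*, an organic anion transporter (0.179), *Hmox1*, heme oxygenase (0.182), and *Tnc* (0.189). The other members of the family were farther away. *Thbs1* ranked at 60 with a difference of 0.501, *Comp* at 488 (0.879), *Thbs3* at 732 (0.980) and *Thbs2* at 740 (0.981). The 5 genes are the closest of 13052 by the way they were picked, and the measure weighs mainly the size of the genotype difference, so the ranks are a description.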

How the data were processed

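Expected counts per gene, which the authors deposited as one table, had been made with RSEM (version 1.3.1 in the submitters' processing notes, which also name cutadapt) against GRCm38 with Ensembl release 91. Reads were single, 60 bases long, from directional poly(A) libraries of 100 ng RNA, with CASAVA 1.8 base calls. The aligner and the strand setting are not given in the sources used here.

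Expected counts were rounded, filtered with filterByExpr, scaled by TMM and compared with the quasi-likelihood F-test of edgeR 4.0.16 (R 4.3.3), two-sided, with genotype as the sole term. P values were adjusted by Benjamini-Hochberg over 15580 genes, and a gene under 0.05 is described as called. SE was derived from the F statistic and the fold change. The fit was tested on simulated data. CPM use TMM-scaled totals, and lengths and coordinates come from GENCODE M21.

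Replicate numbers come from the sample titles and were left out of the design. In each list the called genes with the 2 highest and 2 lowest log2 fold changes were named by rule, as were the 5 genes most like *Thbs4* (average log2 CPM of at least 1, prior count 2). Other list genes were named after their values were seen. The members and lists were chosen with earlier results of these data known. Alternatives were the likelihood ratio test, DESeq2 1.42.0, limma-voom (limma 3.58.1), other scalings and filters, unrounded counts, thinning, a replicate block, summed WT pairs, atrial and valve covariates and leaving out each library. Comparison with each WT pair alone and scaling to fibroblast markers were added after seeing the data. Intervals, floors and SE cover no PCR duplication, since reads carried no molecular identifiers.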

Additional observations from a re-analysis of the deposited data

Results flagged for a closer look

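Each set of 4 libraries was searched for a value set off from the rest, by Dixon's ratio of the gap next to it to the full range. Such a value was found in 4 of 66 sets, and 3.3 would be found by chance at 1 in 20. *Thbs3* was at 33.7 CPM in *Nrg1GOF* library 3, while the other *Nrg1GOF* libraries were at 24.5 to 25.0 CPM (ratio 0.941), and without that library its log2 fold change was 0.59. The summed CPM per kilobase of the family was 134.2 in *Nrg1GOF* library 4, against 129 to 130 in the others (ratio 0.843), a gap that is small beside the difference from WT. The total of *Nrg1GOF* library 4 was 8038641 counts, against 20578081 to 22547833 in the other *Nrg1GOF* libraries (ratio 0.864). *Cd47* was at 63.3 CPM in *Nrg1GOF* library 3, with the other *Nrg1GOF* libraries between 60.2 and 60.4 CPM (ratio 0.935).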

How the results depend on the processing

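Recomputing the results under alternatives gave 927 values, of which 815 were labeled the same, 35 moved, 56 weakened, 6 strengthened and 15 reversed. The same means the same direction and call, a shift below the replicate spread or, for a count, a value near the main count. Counts labeled the same include 2999 called genes against WT libraries 1 and 2 alone, beside 4467, and 4 members called, beside 5. The 815 values therefore include counts in which single calls were lost. Leaving out each library in turn gave 1.99 to 2.12 for *Thbs4*, 1.23 to 1.57 for *Thbs1*, 0.54 to 0.77 for *Thbs2*, 0.59 to 0.76 for *Thbs3* and 0.71 to 1.02 for *Comp*, all above 0, and 3239 to 4261 called genes against 4467.

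Summing the WT pairs left 2464 called genes, with the atrial covariate 1427 and with the valve and tendon covariate 288. The count of members called went from 5 to 1 under both covariates and to 4, without *Comp*, with the WT pairs summed, after thinning, against WT libraries 3 and 4 alone and without *Nrg1GOF* library 2 or WT library 4, a description since the family was chosen on this contrast. Under the atrial covariate the log2 fold changes were 0.76 (*Thbs1*), 0.18 (*Thbs2*), 0.51 (*Thbs3*) and 1.31 (*Comp*), and under the valve and tendon covariate 0.28, -0.12, 0.39 and 1.37, with 1.84 for *Thbs4*. Called genes fell to 4 and 2 of the receptors, 7 and 3 of the ligands, 2 and 0 of the *Atf6* list, and 7 and 4 of the matricellular genes under these covariates, while 6 and 1 of the type 1 repeat genes were called, against 8. For the count of 0 by edgeR, 2 genes had an unadjusted p under 0.05, while DESeq2 and limma-voom, run without the covariate, each called 14. *Col5a1* reversed to -0.05 with the valve and tendon covariate, and *Col9a1* to -0.37 with the atrial and -0.46 with the valve and tendon covariate. *Atf6* reversed to -0.10 and -0.24 under these covariates and to -0.043 against WT libraries 1 and 2 alone, *Cd47* to -0.069 and *Lrp1* to -0.16 with the valve and tendon covariate, and *Vegfa* to -0.34 against WT libraries 3 and 4 alone, with -0.091 to 0.242 when single libraries were left out (below 0 without *Nrg1GOF* library 3 or WT library 1 or 2). Both covariates differ between the genotypes, and the cause was not tested further.

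Against WT libraries 1 and 2 alone the log2 fold changes were 0.96 (*Thbs1*), 0.36 (*Thbs2*) and 1.90 (*Thbs4*), and against WT libraries 3 and 4 alone 2.0, 1.02 and 2.21. Relative to the fibroblast markers they were 0.65 (*Thbs1*), -0.14 (*Thbs2*), -0.13 (*Thbs3*), 1.23 (*Thbs4*) and 0.12 (*Comp*), by construction lower because the markers rose. Scaling by library totals alone gave 2874 higher and 1521 lower calls, against 2474 and 1993.

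Replicates share numbers across the groups. The deviations of same-numbered libraries correlated at 0.129, 0.0492, 0.199 and 0.0668, and *Nrg1GOF* library 1 correlated best with WT library 2 (0.187), so the numbers were not taken as pairs. With the replicate block, 4524 genes were called, and the members were at 1.46 (*Thbs1*), 0.68 (*Thbs2*), 0.70 (*Thbs3*), 2.05 (*Thbs4*) and 0.90 (*Comp*), while of the list genes *Col9a1* lost its call and *Cacna2d1* gained one, so that called receptors went from 11 to 12 and called ligands from 13 to 12. Depth limits *Comp* most, with 18 to 63 counts per library.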
